A study of Mus musculus with 6 samples.

Results

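Oligoadenylate synthetases are sensors of double-stranded RNA whose genes are induced by interferon. The 8 genes described here are Oas1a, Oas1b, Oas1c, Oas1g, Oas2, Oas3, Oasl1 and Oasl2, taken by symbol from a table of 23608 genes, and all 8 were found and passed the filter on low counts. They were measured by bulk RNA-seq in mouse leukemia cells carrying AE9a, a truncated AML1-ETO fusion protein, together with GFP, 1 floxed copy of Usp18 and UBCER-Cre, a recombinase driven by the ubiquitin C promoter and active once tamoxifen is given. Fetal liver cells had been transduced and transplanted into irradiated recipient mice, which keep host immune cells of their own. Once the recipients were sick, 3 mice received oil (the libraries labelled oil, Usp18+/f) and 3 received tamoxifen (the libraries labelled tamoxifen, Usp18+/Δ, in which 1 allele of Usp18 is meant to be lost), and their GFP+ Lin- c-Kit+ spleen cells were sorted 3 days into treatment. Both groups carry AE9a, the Cre and 1 unfloxed copy of Usp18, so that tamoxifen, active Cre and the loss of an allele cannot be told apart. Recipients were wild-type C57BL/6 mice, and the study's mice were of both sexes and 8 to 12 weeks old.

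When a synthetase binds double-stranded RNA, it joins ATP into short oligoadenylates with an unusual linkage. These act as a messenger of the antiviral response, which ends in the arrest of translation. The phosphodiesterase Pde12 degrades the messenger, and Abce1 is a factor of ribosome recycling. In mice the single human OAS1 gene corresponds to a row of duplicated Oas1 genes, of which several lack synthetase activity. The genes are classical targets of ISGF3, a complex with Stat2 and Irf9 that binds the interferon-stimulated response element, and Usp18 restrains the receptor upstream of ISGF3.

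The libraries held between 17118964 and 20741399 counts each, and every pair of replicates differed by more than sampling noise. Tamoxifen 4 stood apart from the other libraries of its group: on the first principal component, which held 65.1% of the variance, it scored -2.99, whereas tamoxifen 1 and 2 scored 37.3 and 47.5 and the oil libraries lay between -31.1 and -23.4. Results are therefore given with and without it. The targeted gene went against its label, since Usp18 stood at 9.12, 11.0 and 11.2 CPM (a count scaled to the size of its library) in oil 1, 3 and 4, against 15.1, 28.0 and 19.4 CPM in tamoxifen 1, 2 and 4. Its log2 fold change was 0.998 (SE 0.23, edgeR adjusted p = 0.0739; 0.00654 without tamoxifen 4). Without tamoxifen 2, its highest library, the log2 fold change was 0.73 (adjusted p = 0.163). Leaving out any library but tamoxifen 4 gave no call of Usp18 (adjusted p between 0.107 and 0.295). The Usp18 count covers the whole gene, deleted part or not. All directions here rest on the labels of the libraries and not on a fall of Usp18. In bulk samples like these, fewer cells of a type and less RNA per cell cannot be told apart.

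All the family genes lie on chromosome 5 of the mouse genome (mm10, GENCODE M21), in 2 clusters that are 5792 kb apart. Oasl2 (chr5:114896936-114912234, plus strand) and Oasl1 (chr5:114923240-114937915, plus strand) stand side by side. The second cluster spans 191 kb and holds, in this order, Oas2 (chr5:120730333-120749853), Oas3 (chr5:120753098-120777661), Oas1c (chr5:120800194-120812514), Oas1b (chr5:120812635-120824163), Oas1g (chr5:120876142-120887613) and Oas1a (chr5:120896256-120907521), with Oas1d, Oas1e, Oas1f and Oas1h between or beside them. Of the 6 members of this cluster, Oas1b alone is on the plus strand. Oas1c and Oas1b start head to head, with 121 bases between their annotated starts in GENCODE and 95 in RefSeq.

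Interferon is known to act on this family through ISGF3 bound at the promoter, so the response element is shown for the members that hold a match to it. In the RefSeq promoter windows (250 bases before to 50 bases after the start, GRCm38.p6), which were given for 6 of the 8 members but not for Oas1b and Oas2, both strands were searched for the core GAAANNGAAA. The core was found in 4 of the 6 windows, against 3.44% of 32851 mouse promoters of the same length. The capitals below mark the core or its overlapping copies, and each stretch is printed on the strand on which the core reads as spelled.
Oas3: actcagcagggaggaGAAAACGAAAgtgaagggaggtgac
Oas1c: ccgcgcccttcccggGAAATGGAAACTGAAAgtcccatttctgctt
Oas1g: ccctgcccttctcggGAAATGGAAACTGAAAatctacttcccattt
Oas1a: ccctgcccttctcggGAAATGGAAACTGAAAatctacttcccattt

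The stretches are chr5:120777710-120777749 (minus strand) for Oas3, chr5:120812598-120812643 (plus strand) for Oas1c, chr5:120887601-120887646 (minus strand) for Oas1g and chr5:120907515-120907560 (minus strand) for Oas1a. The stretches of Oas1a and Oas1g are identical over all 46 bases, and that of Oas1c shares a run of 19 bases with both. Oas3 holds 1 copy of the core, which ends 66 bases before its start, while the 3 Oas1 genes hold 2 overlapping copies. The copies end 5 bases before the start of Oas1a and 3 bases before that of Oas1g. In the Oas1c window they lie on the opposite strand, 99 to 114 bases before the Oas1c start. Read toward the GENCODE start of Oas1b, the same copies end 7 bases before it, close to their place in Oas1a and Oas1g. RefSeq puts the starts of Oas1c and Oas1b only 95 bases apart. With that start the copies fall after the start of Oas1b, so the likeness in place depends on the annotation. The STAT site TTCNNNGAA, searched the same way, occurred in 1 of the 6 windows, that of Oas1a, against 8.30% of all promoters. The motif matches describe letters only and locate no bound factor.

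The windows of Oasl1 and Oasl2 held no match to the paired core, and neither did those of Oas1f and Oas1h, the other family genes in the table. Since Oasl1 and Oasl2 were the members whose groups did not overlap, all 250 bases of their windows before the start (plus strand, chr5:114922990-114923239 and chr5:114896684-114896933) are printed with any single GAAA or TTTC in capitals. Each holds 3 of these 4-base runs. Such runs were not counted in other promoters, so whether 3 is many cannot be judged, and the capitals mark letters only.
Oasl1: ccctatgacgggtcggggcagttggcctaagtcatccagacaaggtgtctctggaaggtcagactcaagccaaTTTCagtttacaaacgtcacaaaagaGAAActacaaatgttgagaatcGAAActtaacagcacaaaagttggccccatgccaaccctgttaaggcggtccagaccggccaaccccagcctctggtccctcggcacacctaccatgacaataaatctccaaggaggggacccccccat
Oasl2: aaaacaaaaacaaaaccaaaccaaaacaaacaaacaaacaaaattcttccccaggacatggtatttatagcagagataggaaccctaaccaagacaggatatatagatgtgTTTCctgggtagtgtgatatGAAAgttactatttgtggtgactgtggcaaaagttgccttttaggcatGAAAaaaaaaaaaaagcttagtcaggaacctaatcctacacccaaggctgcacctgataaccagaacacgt

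To find how strongly the leukemia cells use each gene, levels were compared per length, as CPM per kb of exon. In the oil libraries Oas1a was the most abundant, at 22.4 ± 1.66 CPM per kb (SD, n = 3). It was followed by Oasl1 at 12.6 ± 1.29 CPM per kb and Oas3 at 10.7 ± 1.46 CPM per kb, whose ranges overlapped. Oas2 (6.04 ± 1.25 CPM per kb) and Oas1c (5.15 ± 0.497 CPM per kb) also overlapped. Below them, without overlap between neighbors in this order, came Oas1g at 4.07 ± 0.606, Oas1b at 2.31 ± 0.734 and Oasl2 at 0.897 ± 0.221 CPM per kb. The cells thus held transcripts of the whole set without tamoxifen, over a wide span of levels. In the tamoxifen libraries Oas1a remained first in mean level at 27.5 ± 8.20 CPM per kb and Oasl2 last at 2.17 ± 0.874 CPM per kb (SD, n = 3), and the means of Oas1c and Oas2 changed places. The summed level of the 8 genes was 59.1, 68.6 and 64.5 CPM per kb in oil 1, 3 and 4 and 68.0, 117 and 84.3 CPM per kb in tamoxifen 1, 2 and 4, so that tamoxifen 1 lay within the oil range. Oas1a made up between 33.4% and 36.6% of the sum in the oil libraries and between 27.9% and 33.5% in the tamoxifen libraries. Oasl1 made up between 18.8% and 20.5% of the sum in oil and between 22.6% and 24.1% in tamoxifen.

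The other family genes were nearly silent. Oas1e had no count in any library, and Oas1d, Oas1f and Oas1h reached at most 3.5 counts, so that none of the 4 was tested. A count of 0 allows a level of up to 0.145 to 0.177 CPM, the value of 3 counts in these libraries, by counting error only. Expressed and silent genes are interspersed along the cluster, with Oas1f and Oas1h between Oas1b and Oas1g.

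**Figure D1:**
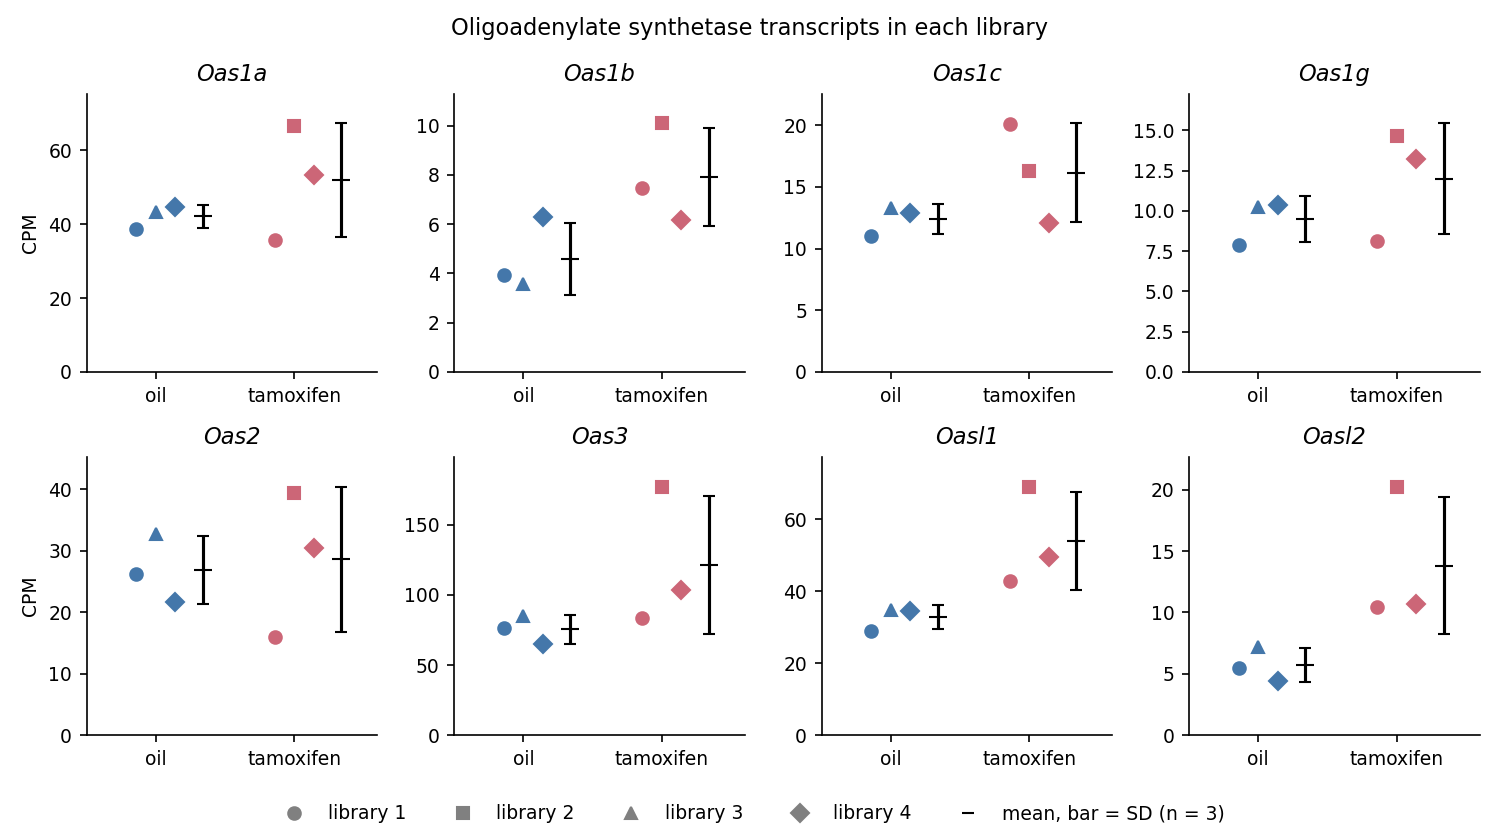
CPM (linear axis from 0) of each of the 8 synthetase genes in 3 oil (blue) and 3 tamoxifen (red) libraries, with the mean and SD of each group in black. Only Oasl1 and Oasl2 have all 3 tamoxifen libraries above all 3 oil libraries, and tamoxifen 2 is the highest library for 7 of the 8 genes.

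The 2 genes of the Oasl cluster encode synthetase-like proteins with ubiquitin-like repeats at their ends. Oasl2, which in the mouse keeps synthetase activity, stood at 5.52, 7.22 and 4.42 CPM in oil 1, 3 and 4, against 10.5, 20.3 and 10.7 CPM in tamoxifen 1, 2 and 4. The lowest tamoxifen library lay above the highest oil library. The log2 fold change was 1.27 (SE 0.31), or 2.41-fold, the largest of the 8, with an edgeR adjusted p of 0.0827, which missed the threshold of 0.05. Without tamoxifen 4 it was 1.42 (adjusted p = 0.00408) and without tamoxifen 2 it was 0.89 (adjusted p = 0.199).

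Oasl1 lacks the synthetase activity and is known in the mouse as a brake on the translation of Irf7. It stood at 28.9, 34.9 and 34.6 CPM in oil 1, 3 and 4, against 42.8, 69.0 and 49.6 CPM in tamoxifen 1, 2 and 4. Here too the groups did not overlap, and tamoxifen 2 was the highest. The log2 fold change was 0.71 (SE 0.18), or 1.64-fold, with an edgeR adjusted p of 0.0885, and it was 0.77 (adjusted p = 0.00766) without tamoxifen 4 and 0.50 (adjusted p = 0.191) without tamoxifen 2.

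Oas3 and Oas2 are the large synthetases, with 3 and 2 synthetase units in 1 protein. Oas3, the main source of active oligoadenylates in human cells, stood at 76.7, 85.3 and 64.7 CPM in oil 1, 3 and 4, against 83.4, 177 and 104 CPM in tamoxifen 1, 2 and 4. Tamoxifen 1 lay just under oil 3, so the groups overlapped by that 1 library. The log2 fold change was 0.68 (SE 0.26, edgeR adjusted p = 0.205), 0.78 (adjusted p = 0.0306) without tamoxifen 4 and 0.31 (adjusted p = 0.457) without tamoxifen 2, its highest library. Oas2 stood at 26.2, 32.7 and 21.7 CPM in oil, against 15.9, 39.3 and 30.5 CPM with tamoxifen. The tamoxifen libraries of Oas2 held both the lowest and the highest value of the 6. Its log2 fold change was 0.09 (SE 0.30, edgeR adjusted p = 0.880), and 0.04 (adjusted p = 0.940) without tamoxifen 4, so no difference was detected in either direction. Leaving out tamoxifen 1 or 2 gave 0.38 and -0.21.

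Oas1a encodes an active small synthetase, and Oas1g is its closest copy in these data. Oas1a stood at 38.6, 43.2 and 44.6 CPM in oil, against 35.8, 66.6 and 53.2 CPM with tamoxifen. Oas1g stood at 7.88, 10.3 and 10.4 CPM in oil, against 8.12, 14.6 and 13.3 CPM with tamoxifen. Both genes had tamoxifen 1 among or below the oil libraries and tamoxifen 2 and 4 above them. The log2 fold changes were 0.30 (SE 0.20, edgeR adjusted p = 0.414) for Oas1a and 0.33 (SE 0.24, adjusted p = 0.438) for Oas1g, and 0.28 and 0.25 without tamoxifen 4 (adjusted p = 0.314 and 0.446). These values moved more with the other tamoxifen libraries, to 0.08 and 0.17 without tamoxifen 2 and to 0.51 and 0.55 without tamoxifen 1, none of them called. Of all 100-base windows in the annotated transcripts of Oas1a, 40.9% also occur in Oas1g, and 31.3% of those of Oas1g occur in Oas1a. Reads that lie wholly in shared sequence cannot be assigned to 1 of the 2 genes by sequence. The study's paired reads were longer than these windows, so some reach past them, and the share left ambiguous was not counted. The separate values of the 2 genes, and their likeness, are therefore uncertain.

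Of the pair that starts head to head, Oas1b is known as the flavivirus resistance gene, which carries a premature stop in most laboratory strains, and the annotation lists it as a polymorphic pseudogene. It stood at 3.94, 3.59 and 6.28 CPM in oil, against 7.46, 10.1 and 6.19 CPM with tamoxifen. The groups overlapped by 1 library, since tamoxifen 4 lay just under oil 4. The log2 fold change was 0.78 (SE 0.28, edgeR adjusted p = 0.197), and 0.93 (adjusted p = 0.0223) without tamoxifen 4. Oas1c stood at 11.0, 13.3 and 12.9 CPM in oil, against 20.1, 16.3 and 12.1 CPM with tamoxifen. It was the only member with its highest value in tamoxifen 1, and tamoxifen 4 lay within the oil range. The log2 fold change was 0.38 (SE 0.20, edgeR adjusted p = 0.308), 0.55 (adjusted p = 0.0183) without tamoxifen 4 and 0.19 (adjusted p = 0.668) without tamoxifen 1. The strand setting of the counting is not given in the sources used here, so reads where the 2 opposite genes come close are uncertain. Of the Oas1c windows, 4.23% are shared with the predicted gene Gm43069.

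**Figure D2:**
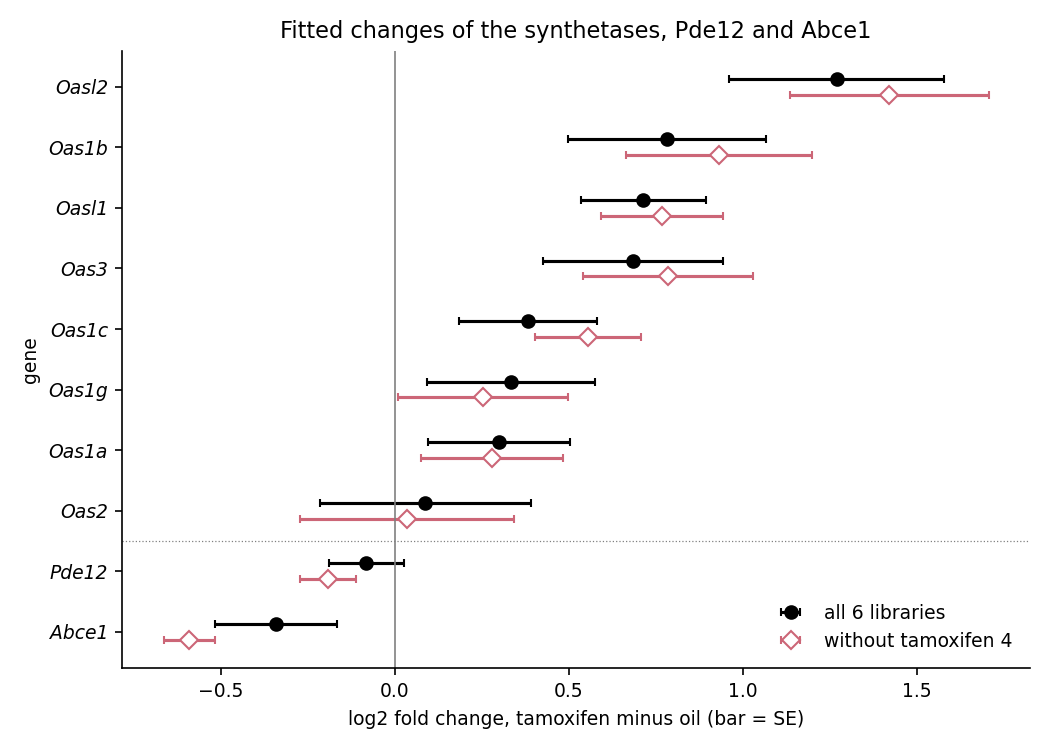
Fitted log2 fold change (tamoxifen minus oil) with its SE for the 8 synthetases and, under the dotted line, Pde12 and Abce1, with all 6 libraries (black) and without tamoxifen 4 (red, open). The 8 synthetases lie between 0.09 for Oas2 and 1.27 for Oasl2, and the value of Abce1 lies farther from 0 without tamoxifen 4.

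Over the family, all 8 fitted changes were positive, with a median log2 fold change of 0.53, but the sign of Oas2 turned in 4 of 13 alternative settings. Over all genes, 5809 of the 11614 tested had a positive value and the median was close to 0. None of the 8 members was called by edgeR at an adjusted p under 0.05, beside 1.75% of all tested genes called higher. At an unadjusted p under 0.05, 4 members (Oasl2, Oasl1, Oas1b and Oas3) were higher, beside 12.6% of all tested genes. For 2 members the lowest tamoxifen library lay above the highest oil library, as it did for 13.3% of all tested genes. The count of calls depended on the tool and on 1 library: DESeq2 called Oasl2 (adjusted p = 0.00254) and Oasl1 (adjusted p = 0.00749) higher, beside 6.14% of all tested genes. Without tamoxifen 4, edgeR called 5 members higher (Oasl2, Oasl1, Oas1c, Oas1b and Oas3) and 0 lower, beside 19.2% of all tested genes called higher and 17.1% called lower. Leaving out any other library gave no call among the members. Those fits called only 8 to 16 genes higher and 0 lower, of 11747 to 11861 tested.

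To see how the members varied among the libraries, the log2 CPM of each was set against its mean in the oil libraries. The median shift of the 8 members was 0.27 in tamoxifen 1, 0.87 in tamoxifen 2 and 0.46 in tamoxifen 4, while the median over all tested genes stayed near 0 in each. Tamoxifen 4 was thus not the library in which the synthetases lay closest to oil, in contrast to its place on the first principal component. Tamoxifen 2 held the highest value for 7 of the 8 members. Tamoxifen 1 split the family most widely: Oasl2 lay 0.89 and Oas1c 0.70 above the oil mean on the log2 scale, and Oas2 lay at -0.73, Oas1a at -0.23 and Oas1g at -0.21. Within oil, oil 1 held the lowest value of the 6 libraries for 3 members.

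**Figure D3:**
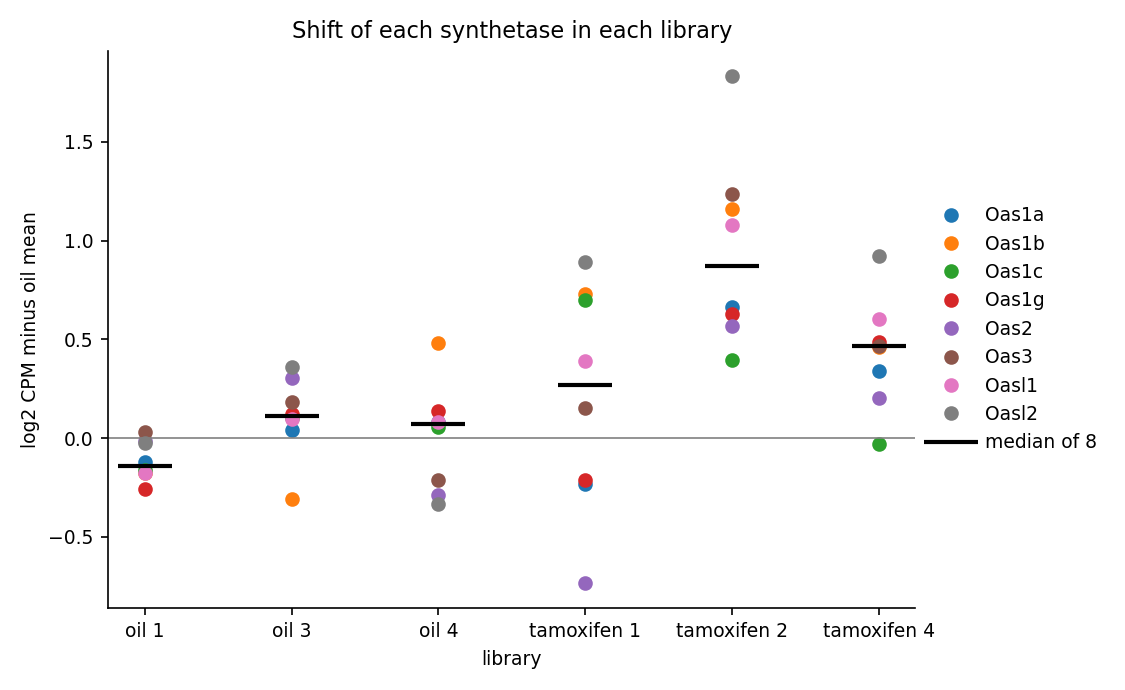
Shift of log2 CPM from the oil mean for each of the 8 synthetases in each library, with the median of the 8 as a black bar. The members spread most widely in tamoxifen 1, from -0.73 for Oas2 to 0.89 for Oasl2, and the median is highest in tamoxifen 2 at 0.87.

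As a description over 6 libraries, which share their depth and the 2 groups, the Pearson correlation of log2 CPM was 0.96 between Oas1a and Oas1g, the pair with shared sequence. It was 0.94 between Oas3 and Oasl2, 0.93 between Oasl1 and Oasl2 and 0.91 between Oas3 and Oasl1. Oas1c followed the others least, with a correlation of -0.38 to Oas2 and -0.03 to Oas1a, and 0.65 to its head-to-head neighbor Oas1b. The fitted changes did not follow the order of the genes in the cluster: from left to right the log2 fold changes were 0.09 for Oas2, 0.68 for Oas3, 0.38 for Oas1c, 0.78 for Oas1b, 0.33 for Oas1g and 0.30 for Oas1a.

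**Figure D4:**
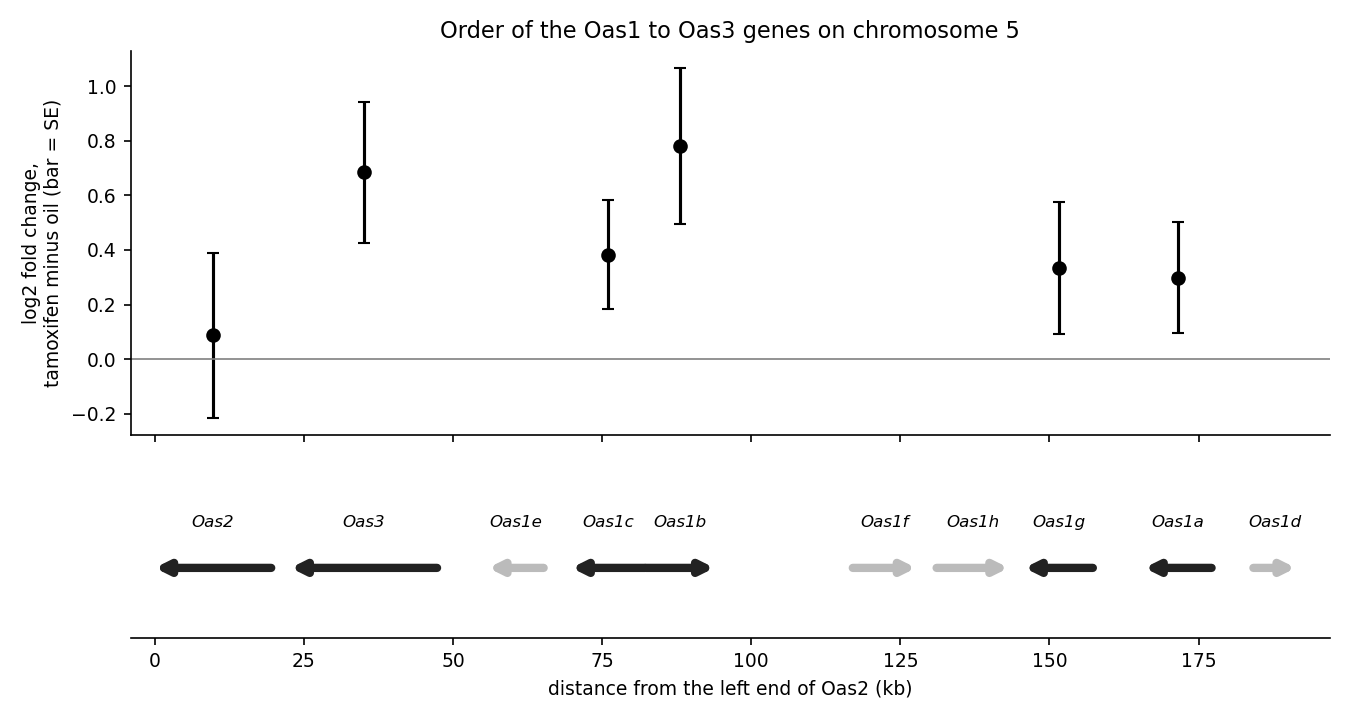
Fitted log2 fold change with its SE (top) above the order and direction of the genes (bottom) in the Oas1 to Oas3 cluster, in kb from the left end of Oas2, with genes that were not tested in gray. The values rise and fall along the 191 kb, from 0.09 for Oas2 through 0.78 for Oas1b to 0.30 for Oas1a.

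The genes around the clusters were read as a local comparison. Of 11 of the nearest tested genes beside the clusters, none was called (edgeR adjusted p between 0.317 and 0.956), and 4 had a positive log2 fold change. Over all 11614 tested genes, 203 were called higher and 31 lower. None of the 8 members was called either, so the calls do not set the neighbors apart. The uncharacterized gene 2210016L21Rik, only 4.24 kb from the Oasl cluster, had a value of -0.01, and 4 others near it (Ankrd13a, 1500011B03Rik, 2610524H06Rik and Sppl3) lay between -0.12 and 0.30. Around the Oas1 to Oas3 cluster, Iqcd, Rita1, Ddx54, Ptpn11, Rpl6 and Hectd4 lay between -0.22 and 0.10. Ddx54 and Ptpn11 had all tamoxifen libraries below all oil libraries, a pattern not counted over all genes.

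Of the genes that act beside the synthetases, Abce1 stood at 532, 483 and 524 CPM in oil 1, 3 and 4, against 350, 332 and 534 CPM in tamoxifen 1, 2 and 4. Tamoxifen 1 and 2 lay below all oil libraries and tamoxifen 4 lay just above them. The log2 fold change was -0.34 (SE 0.18, edgeR adjusted p = 0.305), -0.59 (adjusted p = 0.000362) without tamoxifen 4, but -0.22 (adjusted p = 0.621) without tamoxifen 2. Pde12 stood at 55.3, 53.0 and 55.7 CPM in oil, against 48.1, 47.6 and 59.2 CPM with tamoxifen, with a log2 fold change of -0.08 (edgeR adjusted p = 0.672; -0.19 and 0.0915 without tamoxifen 4; -0.03 and 0.939 without tamoxifen 2). In both genes tamoxifen 4 lay on the other side of the oil libraries from tamoxifen 1 and 2, unlike in Oasl1, Oasl2 and Oas3.

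The other sensors of double-stranded RNA and their adaptor were compared next. Of 8 genes, 6 were tested, 5 had a positive log2 fold change and the median was 0.28. None was called by edgeR with the filter on low counts, while 3 were higher at an unadjusted p under 0.05, beside 12.6% of all tested genes. DESeq2 called 2 higher, beside 6.14% of all tested genes, and edgeR without tamoxifen 4 called 3 higher, beside 19.2%. Dhx58 (LGP2, a regulator of the RIG-I-like receptors) stood at 15.8, 19.0 and 16.2 CPM in oil, against 23.4, 48.8 and 34.1 CPM with tamoxifen, a log2 fold change of 1.06 (SE 0.25, edgeR adjusted p = 0.0763). Ddx58 (RIG-I itself) stood at 32.9, 33.7 and 32.2 CPM in oil, against 50.4, 72.4 and 47.1 CPM with tamoxifen, a log2 fold change of 0.78 (SE 0.16, adjusted p = 0.0557). Neither gene's groups overlapped, as in Oasl1 and Oasl2, and DESeq2 called both (adjusted p = 0.00142 and 0.00087), as did edgeR without the filter (adjusted p = 0.0356 and 0.0252). Adar, which edits double-stranded RNA, also did not overlap between the groups, and its log2 fold change was 0.41 (adjusted p = 0.188; 0.0240 without tamoxifen 4; log2 fold change 0.25 without tamoxifen 2). Ifih1 (MDA5) at 0.14, the kinase Eif2ak2 (PKR) at 0.10 and the adaptor Mavs at -0.02 were not called by any of these fits. Zbp1 and Tlr3 were too low to be tested, with at most 0.220 CPM.

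Upstream, the receptor and ISGF3 genes (Ifnar1, Ifnar2, Jak1, Tyk2, Stat2, Irf9, Usp18, Irf7 and Irf1) had 8 positive values among 9 tested and a median log2 fold change of 0.38. None was called by edgeR as fitted here. At an unadjusted p under 0.05, 5 were higher, beside 12.6% of all tested genes. DESeq2 called 1 higher, beside 6.14%, and edgeR without tamoxifen 4 called 6 higher, beside 19.2%. The widest change was that of Irf7, the amplifier of interferon production, with 16.8, 27.2 and 18.5 CPM in oil, against 34.1, 101 and 38.7 CPM with tamoxifen. Its log2 fold change was 1.48 (SE 0.41, edgeR adjusted p = 0.114), and 0.80 (adjusted p = 0.187) without tamoxifen 2. After Irf7 and Usp18 came Irf1, at 0.81 (SE 0.27, adjusted p = 0.172). Of 12 other interferon-stimulated genes, 10 were tested, 9 had a positive value and the median was 0.88. An unadjusted p under 0.05 was seen for 8, beside 2391 of all 11614 tested genes. Of those 8, Ifit2 went the other way, with 50.9, 44.9 and 47.6 CPM in oil, against 40.4, 37.4 and 43.1 CPM with tamoxifen (log2 fold change -0.24, edgeR adjusted p = 0.227), and its groups did not overlap. Mx2, an antiviral GTPase, rose and was the only one called (edgeR adjusted p = 0.0399), beside 1.75% of all tested genes called higher. It stood at 0, 0.194 and 0.103 CPM in oil, against 1.21, 3.42 and 1.77 CPM with tamoxifen. With 0, 4 and 2 counts in oil, it passed the filter on low counts only through the tamoxifen libraries. It was also called without tamoxifen 4 (adjusted p = 0.00197), but not when any other library was left out (adjusted p between 0.0964 and 0.187), nor with limma-voom (adjusted p = 0.0545). The fits without another library called only 8 to 16 genes higher over all genes. DESeq2 called 6 of this list higher, beside 6.14% of all tested genes. Without tamoxifen 4, edgeR called 6 higher and 1 lower, beside 19.2% and 17.1% of all tested genes. Rsad2 and Mx1 followed Mx2 in size and likewise lay between 0 and 0.485 CPM in oil. The fold changes of Mx2, Rsad2 and Mx1 all rest on few counts. The 18 interferon genes in the table, those of the alpha family and Ifnb1, Ifng, Ifnk and Ifne, had at most 2 counts in any library and were not tested.

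**Figure D5:**
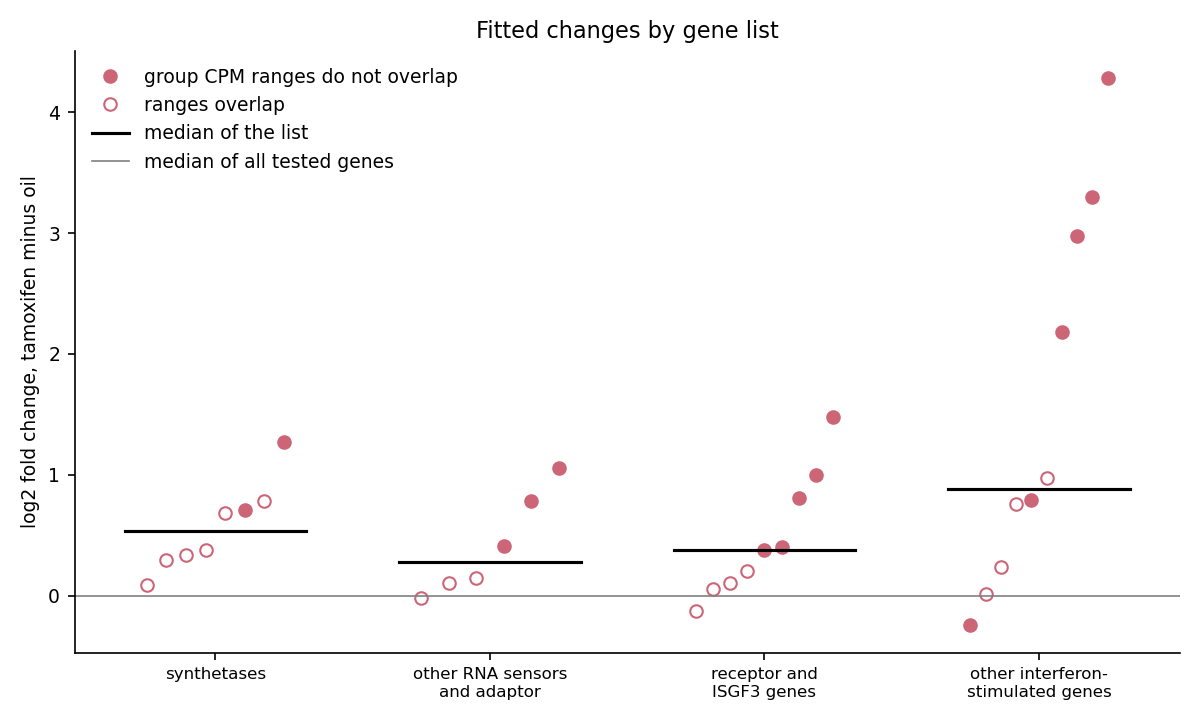
Fitted log2 fold change of each tested gene in 4 lists, filled where the CPM ranges of the 2 groups do not overlap, with the median of each list in black and the median of all tested genes in gray. The medians are 0.53 for the synthetases, 0.28 for the other RNA sensors, 0.38 for the receptor and ISGF3 genes and 0.88 for the other interferon-stimulated genes.

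Genes whose pattern was most like the family were found by the Pearson correlation, over the 6 libraries, of log2 CPM with the mean standardized level of the 8 members, among 11112 genes with a mean of at least 1 CPM. The 10 closest were Irf9, Ly6a, Nipsnap1, Irf7, Zfp235, Stard3, Dram2, Jak3, Trim30a and Mfsd5, with correlations from 0.99 for Irf9 down to 0.98. Irf9, the DNA-binding part of ISGF3, stood at 78.3, 86.4 and 81.5 CPM in oil, against 92.0, 131 and 97.0 CPM with tamoxifen, so its groups did not overlap. Ly6a (Sca-1, a stem cell surface protein induced by interferon) had 0.281, 0.679 and 0.514 CPM in oil, against 0.768, 3.72 and 0.994 CPM with tamoxifen. It reached the mean of 1 CPM needed for the ranking only through tamoxifen 2, since every other library lay under 1 CPM. Trim30a, a ubiquitin ligase induced by interferon, had 43.4, 46.8 and 49.2 CPM in oil, against 60.3, 97.7 and 66.8 CPM with tamoxifen. All 3 share with the family the order of the tamoxifen libraries, with tamoxifen 2 highest, then 4, then 1. That order follows from their choice by correlation with the family and is no separate result. Of 27 ranked genes of the pathway lists, 22 correlated positively with the family and 5 (Pde12, Abce1, Mavs, Ifnar2 and Ifit2) negatively, from 0.99 for Irf9 to -0.88 for Ifit2, which ranked 10852. The share of positive correlations over all ranked genes was not counted. Ifnar1, among the 22, had 0.21 and ranked 4619, so a positive sign alone says little.

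The sorted population was checked against markers. Kit, on which the cells were sorted, was present at 439 to 451 CPM in oil, against 447 to 781 CPM with tamoxifen. Of the 6 lineage genes, Cd3e, Cd8a and Ly6g had no count in any library, and the 6 summed to at most 0.718 CPM. Markers of neutrophils summed to at most 1.03 CPM, of B cells to at most 0.177 CPM, of T and NK cells to at most 0.0485 CPM and of conventional dendritic cells to at most 0.394 CPM. The 9 macrophage markers, of which 8 were tested and none was at 0 in every library, summed to 4.94 to 9.40 CPM in oil, against 7.73 to 15.9 CPM with tamoxifen. Their sum was highest in tamoxifen 2, as were 7 of the 8 synthetases, but the markers did not move together. C1qb and C1qc had log2 fold changes of -0.17 and -0.12 and were highest in oil 1. The other tested markers had positive values, the largest that of Vcam1 at 1.86 (edgeR adjusted p = 0.0696). Of the plasmacytoid dendritic cell markers, the defining gene Siglech had no count, and the 4 summed to 113 to 132 CPM in oil, against 107 to 141 CPM with tamoxifen. Nearly all of this sum was Bst2 (mean 67.1 CPM in oil), also on the interferon-stimulated list, and Tcf4 (50.6 CPM). Their log2 fold changes were 0.23 and -0.19. Ccr9 had means of 2.04 CPM in oil and 4.03 CPM with tamoxifen, without overlap (log2 fold change 0.98, edgeR adjusted p = 0.127). The sum therefore does not describe the separate genes. Cd34, a progenitor marker, rose from between 8.43 and 11.7 CPM to between 41.8 and 134 CPM (log2 fold change 3.27, SE 0.41, edgeR adjusted p = 0.0232). This call held without tamoxifen 4 and was lost when any other library was left out (adjusted p between 0.0577 and 0.153), in fits that called only 8 to 16 genes higher. The part of the macrophage markers and of Cd34 in the values of the synthetases was not tested.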

How the data were processed

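RNA-seq was measured in 3 oil and 3 tamoxifen samples, labelled as biological replicates. The deposited table holds the authors' estimated counts by gene, unscaled and in steps of 0.5, made with STAR and DESeq2, with mm10 named in the submitters' processing notes; the counting program, strand setting and annotation are not given in the sources used here. Titles number the samples oil 1, 2 and 4 and tamoxifen 1, 3 and 4, the table oil 1, 3 and 4 and tamoxifen 1, 2 and 4; the numbers of the table are used, and oil 3 and tamoxifen 2 were placed by group only. The same samples' ATAC-seq was not analysed here.

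Counts were rounded and fitted in R 4.3.3 with edgeR 4.0.16 (filterByExpr by group, TMM, quasi-likelihood F test, no block), adjusting p-values by Benjamini-Hochberg over 11614 genes. P-values measure the spread between these samples. Log2 CPM used a prior count of 2. DESeq2 1.42.0 and limma-voom (limma 3.58.1), other filters and scalings, a replicate block and each library left out were alternatives. Exon lengths and 100-base windows came from GENCODE M21, and promoters and neighbors from RefSeq. The procedure was tested on simulated data. Floors cover counting error alone, as PCR copies cannot be told from separate molecules.

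The members and lists were chosen with earlier results of these data known. Named were all members, all genes of the family and sensor lists, Pde12 and Abce1, at most 3 genes of each other list by largest absolute log2 fold change (Usp18 is named besides as the targeted gene), up to 3 nearest tested neighbors on each side, and the 10 most alike genes. The genes of the likeness list described in full, and Ifit1, Ifit2 and Ifnar2, were chosen after their values were seen. A few genes of the lists and neighborhoods are not reported here.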

Additional observations from a re-analysis of the deposited data

How the results depend on the processing

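Over the 8 members and 13 alternative settings, 92 of 104 fitted changes kept their direction and their side of the threshold, 8 came to pass it and 4, all of Oas2, changed sign without passing it. The number of members called higher was 0 with edgeR and all libraries, 2 with the DESeq2 test and 1 without a filter on low counts (Oasl2, adjusted p = 0.0438), and it ranged from 0 to 5 when each library was left out, with 5 without tamoxifen 4. The median change of the members stayed positive throughout, from 0.34 to 0.69 when each library was left out and at 0.40 with the replicate block. Oas2 had a log2 fold change of -0.00062 with limma-voom and -0.11 with the replicate block, under which Oas1a had 0.075, Oas1b 0.44, Oas1g 0.20 and Oas3 0.40, and it ranged from -0.21 to 0.38 when each library was left out. Values near 0 also changed sign for Mavs (0.0031 with the replicate block, and from -0.10 to 0.036 with a library left out), Ifnar1 (-0.029 to 0.16) and Ifi27 (-0.088 to 0.11). Over all genes, 203 were called higher and 31 lower. These numbers were 713 and 231 with DESeq2, 48 and 6 with limma-voom, 372 and 61 without a filter, 120 and 17 at a mean of 50 counts, 2278 and 2024 without tamoxifen 4, and 8 to 16 and 0 without any other library. The causes were not tested. The replicate block used numbers 1 and 4, which both groups share. The library of each group with an unshared number took a level of its own and added nothing to the fitted change. The block therefore rested on 2 pairs of libraries, without tamoxifen 2, the library highest for most members. Its calls, and its lack of calls, are limited to those pairs. Deviations from the group means correlated at -0.13 for number 1 and 0.06 for number 4. These 2 values, 1 of them from tamoxifen 4, which stood apart, cannot decide whether samples of the same number are paired. The block changed no call among the members. Among the pathway genes the block added calls of Dhx58 (adjusted p = 0.0487), Irf7 (0.00238), Ifit1 (0.000202) and Rsad2 (0.00773), the fit without a filter added Ddx58 (0.0252), Dhx58 (0.0356), Usp18 (0.0395) and Ifit1 (0.0213), and limma-voom lost Mx2 (0.0545). Unrounded counts, an alternative chosen after seeing the data, gave 0 calls among the members. The same 10 most alike genes were found with a prior count of 0.5.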
